A study of Mus musculus with 33 samples.

Results

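The secretory pathway and ER folding genes described here are a list of 39 named genes, all of which were among the 17982 genes of the count table. They carry secreted proteins, collagen among them, through the endoplasmic reticulum (ER) and out of it, and were sorted by role into regulators (5 genes), chaperones and co-chaperones (11), disulfide isomerases (4), collagen folding factors (4), translocation factors (5), COPII export factors (7), and cargo receptors with retrieval receptors (3). The list was fixed by name and used no measured value, although it was drawn up with earlier results of these data known. Poly-A RNA was sequenced from 3 libraries each of iOB, calvarial-OB and fibroblast. The iOB, or induced osteoblasts, were mouse tail-tip fibroblasts carrying the Col2.3GFP reporter, whose green fluorescent protein is expressed from a Col1a1 promoter fragment active in the osteoblast lineage. They had been exposed for 24 h to lentivirus carrying transcription factor genes that the labels do not name, split on day 3 and moved to osteogenic medium on day 5, with no harvest day given. The calvarial-OB came from the skull vault (calvaria), and the fibroblasts were Col2.3GFP tail-tip cells expanded for 2 passages, without the virus. No group received the medium or a virus without the factors, so the factors, the virus and the medium cannot be told apart. The calvarial-OB libraries are titled as a second dataset, so wherever they are compared, cell type and dataset cannot be told apart. Reporter-positive cells sorted from the iOB cultures (iOB GFP+) entered only through the comparison with fibroblasts that the authors deposited. GFP-positive bone chip cells and the methylation libraries were not analysed here. The labels do not say whether the 3 libraries of a group came from separate animals or cultures, so the p-values measure the spread between these libraries, which may be technical.

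Proteins bound for secretion enter the ER through the Sec61 channel as they are made, are folded there by chaperones and disulfide isomerases, and leave in vesicles coated with the COPII complex. Procollagen needs extra helpers, because its prolines are hydroxylated and its chains wound into a triple helix before export, and osteoblasts secrete collagen I in bulk as the bone matrix. When unfolded protein builds up, the sensors IRE1 (encoded by Ern1), ATF6 and PERK start a program called the unfolded protein response. In it the factors XBP1 and ATF6 bind short promoter motifs and raise the transcription of chaperone and export genes.

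The 9 libraries held between 5646299 and 15023771 counts, and each listed gene had at least 79 counts in each library. Levels are given as CPM, the count scaled to a common library size after edgeR's TMM scaling, and they are not adjusted for gene length. The precursor ribosomal RNA Rn45s took 5.09% to 5.48% of the counts in iOB, 5.10% to 5.77% in calvarial-OB and 2.27% to 10.9% in fibroblast. Across genes, Pearson's r of log2 CPM between replicates was 0.967 to 0.991, and the 2 lowest values both involved calvarial-OB replicate 1. Of 9 osteoblast markers, 9 were higher in iOB and 9 in calvarial-OB than in fibroblast. The 9 include the transcription factor genes Runx2 and Sp7. The labels do not name the factors of the virus, and counts per gene do not separate viral from cellular transcripts. The 8 fibroblast markers summed to 6183 to 6711 CPM in iOB, 6497 to 7097 CPM in calvarial-OB and 21470.0 to 24063 CPM in fibroblast, a sum made up mostly of Fn1 in fibroblast. Of these 8, 5 were lower and 2 higher (Fap, Lum) in iOB than in fibroblast, and 4 were lower and 3 higher (Fap, Lum, Dpt) in calvarial-OB than in fibroblast. Markers of other cells moved with these groups as well. The 14 macrophage markers summed to 2481 to 3961 CPM in iOB, 3662 to 6821 CPM in calvarial-OB and 42.4 to 88.7 CPM in fibroblast, with none of the 14 at 0 in any group. All 14 were higher in iOB and in calvarial-OB than in fibroblast. The 8 adipocyte markers summed to 59.4 to 70.1 CPM in iOB, 489 to 772 CPM in calvarial-OB and 46.4 to 54.3 CPM in fibroblast. Of these, Lep was at 0 in iOB, and Adipoq, Cfd, Cidec and Lep were at 0 in fibroblast. Of the 7 adipocyte markers that passed the filter on low counts, 6 were higher and 1 lower in iOB than in fibroblast. All 7 were higher in calvarial-OB than in fibroblast. The 6 osteoclast markers summed to 239.9 to 254 CPM in iOB, 283 to 318 CPM in calvarial-OB and 112 to 161 CPM in fibroblast, mostly as Ctsk, and both that passed the filter on low counts, Ctsk and Acp5, were higher in each culture than in fibroblast. Of 5 plasma cell markers in the table, Sdc1 held most of the sum, which was 306 to 425 CPM in iOB, 64.0 to 73.1 CPM in calvarial-OB and 149.9 to 225 CPM in fibroblast; Sdc1 was higher in iOB and lower in calvarial-OB than in fibroblast, Prdm1 was lower in calvarial-OB, and Tnfrsf17 was at 0 in iOB and fibroblast. The 4 endothelial markers summed to at most 9.93 CPM in any library. The part of these cells in the results below was not tested. In such bulk libraries fewer cells of a type and less RNA per cell cannot be told apart.

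The listed genes did not shift as a block in either osteoblast culture: some members rose while others fell, and most changes were under 2-fold. In iOB, 6 of the 39 rose and 10 fell relative to fibroblast, while 23 did not pass the test (edgeR's quasi-likelihood test, Benjamini-Hochberg adjusted p below 0.05 over the 13438 genes tested). Over all genes, 22.7% were called higher and 20.6% lower, together 43.3%, so the share of listed genes called, 41.0%, was near the background. In calvarial-OB, 8 rose and 17 fell relative to fibroblast, and 14 did not pass; over all genes 28.4% were called higher and 27.4% lower, together 55.8%. Against calvarial-OB, iOB were higher for 11 listed genes and lower for 7, with 21 not passing; the background was 24.7% higher and 24.1% lower, together 48.8%. All 39 genes passed the filter on low counts. Calls counted by role group below are to be read against these shares over all genes.

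The median log2 fold change of the 39 genes was -0.13 for iOB against fibroblast (all genes: -0.04), -0.19 for calvarial-OB against fibroblast (all genes: 0.02) and 0.10 for iOB against calvarial-OB (all genes: -0.03). With libraries scaled by their totals alone, which moved the iOB-against-fibroblast median of all genes by 0.18, the listed genes' median for that comparison was 0.05, so its sign depends on the scaling. Changes of at least 2-fold were few. Dnajb9 was the only such gene in iOB against fibroblast, where 19.2% of all genes passed both the test and that size. There were 2 in calvarial-OB against fibroblast, Creb3l2 and Canx (24.3% of all genes), and 3 in iOB against calvarial-OB, Atf6, Ern1 and Dnajb9 (19.4%). For 26 listed genes the 3 iOB values did not overlap the 3 fibroblast values (63.0% of all genes did not), for 25 the calvarial-OB values did not overlap those of fibroblast (60.5%), and for 20 the iOB values did not overlap those of calvarial-OB (55.5%). Leaving out calvarial-OB replicate 1 raised the number of listed genes called higher in calvarial-OB than in fibroblast to 13. Over all genes, the fits that each left out 1 library called 3367 to 3965 higher in that comparison, against 3817 with all libraries.

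**Figure D1:**
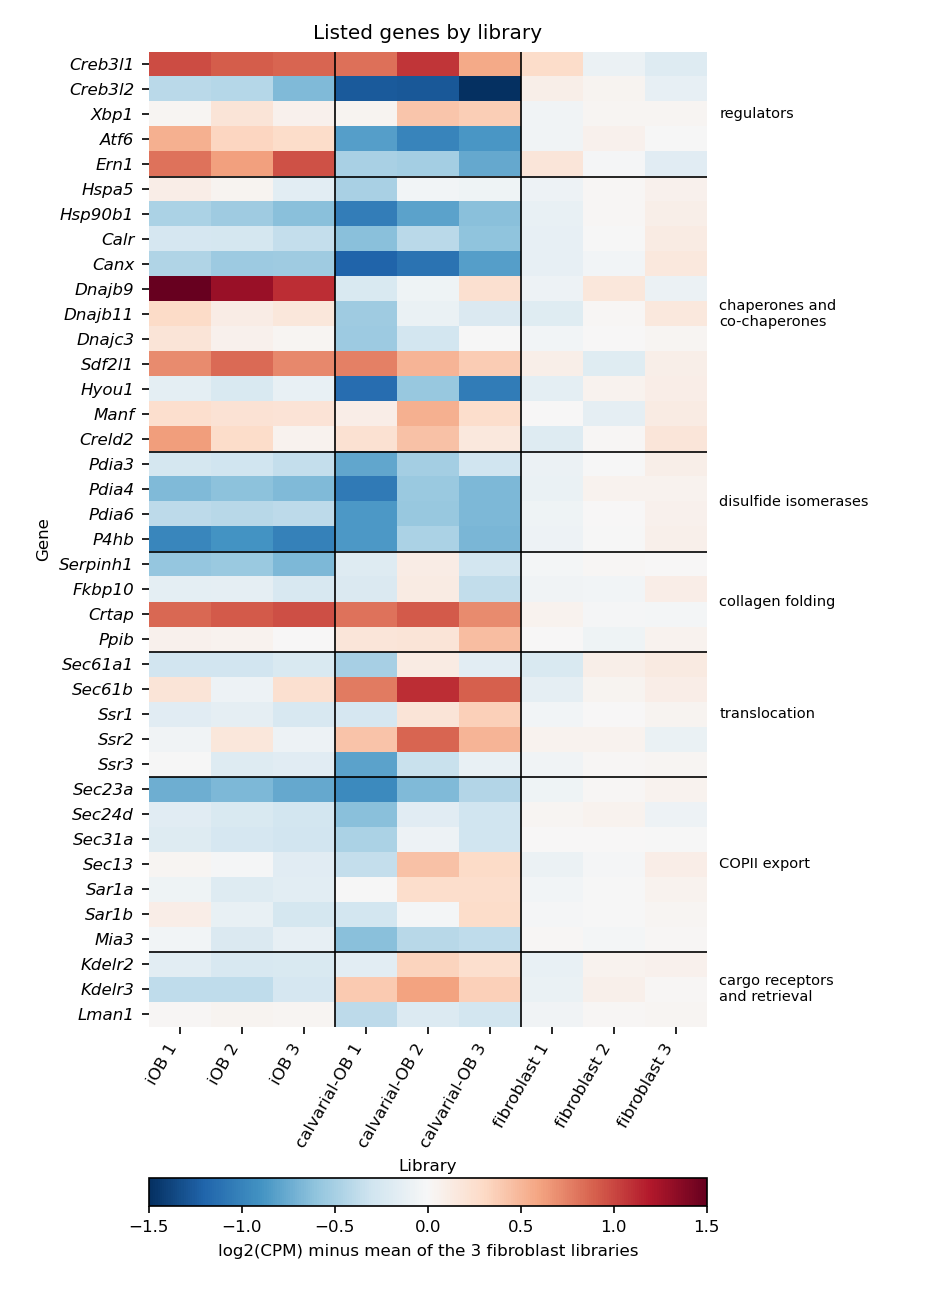
Each row is a listed gene, in role groups, and each column a library of iOB, calvarial-OB or fibroblast (3 each); the colour is log2(CPM) minus the mean of the 3 fibroblast libraries. Red cells (higher than fibroblast) and blue cells (lower) occur within most role groups: Crtap and Dnajb9 are red in all 3 iOB libraries, while the 4 disulfide isomerases are blue in all iOB and calvarial-OB libraries.

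Taken as 1 sum, the listed genes held 1.40% to 1.45% of all counts in iOB, 1.13% to 1.45% in calvarial-OB and 1.55% to 1.59% in fibroblast. Their summed level was 13428 ± 455 CPM in iOB, 13237 ± 1485 CPM in calvarial-OB and 16703 ± 760.0 CPM in fibroblast (SD, n = 3 each). Both osteoblast cultures lay below fibroblast in every library (two-sided exact permutation p = 0.1 for each, the smallest that 3 against 3 libraries allow; adjusted p = 0.12 over 30 such tests), and iOB and calvarial-OB overlapped (exact p = 0.8, adjusted p = 0.8).

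Among the regulators, Creb3l1 rose in both osteoblast cultures and Creb3l2 fell in both, while Atf6 and Ern1 moved in opposite directions in iOB and calvarial-OB. Creb3l1 encodes OASIS, an ER-membrane transcription factor that in mouse osteoblasts activates Col1a1. It had 251, 238 and 233 CPM in the iOB libraries, 226, 268 and 188 CPM in the calvarial-OB libraries, and 154, 119.8 and 111 CPM in the fibroblast libraries. All 6 osteoblast-culture values lay above the 3 fibroblast values, and iOB and calvarial-OB overlapped. The log2 fold change (± its SE) was 0.91 ± 0.15 in iOB (adjusted p = 0.000418) and 0.82 ± 0.15 in calvarial-OB (adjusted p = 0.000539), both against fibroblast. Between iOB and calvarial-OB it was 0.08 ± 0.15 (adjusted p = 0.672).

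Creb3l2 encodes BBF2H7, a related factor that in mouse chondrocytes drives Sec23a. It had 65.0, 64.3 and 54.5 CPM in the iOB libraries, 36.0, 35.8 and 29.2 CPM in the calvarial-OB libraries, and 91.3, 88.7 and 79.2 CPM in the fibroblast libraries. The groups did not overlap and were ordered fibroblast, iOB, calvarial-OB. Its log2 fold change was -0.49 ± 0.12 for iOB against fibroblast (adjusted p = 0.00516), -1.37 ± 0.12 for calvarial-OB against fibroblast (adjusted p = 1.92e-06) and 0.87 ± 0.12 for iOB against calvarial-OB (adjusted p = 0.000119). With library totals alone the adjusted p for iOB against fibroblast was 0.0599. The ratio of Creb3l1 to Creb3l2 counts was 3.94 ± 0.295 in iOB, 6.74 ± 0.652 in calvarial-OB and 1.48 ± 0.180 in fibroblast (SD, n = 3 each); no 2 groups overlapped (exact permutation p = 0.1 for each pair, the smallest allowed; adjusted p = 0.12).

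Ern1 encodes IRE1, the sensor kinase that splices Xbp1 mRNA. It had 24.2, 21.1 and 26.7 CPM in the iOB libraries, 9.81, 9.68 and 8.07 CPM in the calvarial-OB libraries, and 15.6, 13.6 and 12.2 CPM in the fibroblast libraries. The 3 iOB values were the highest and the 3 calvarial-OB values the lowest, with no overlap between groups. Ern1 gave a log2 fold change of 0.79 ± 0.15 in iOB (adjusted p = 0.00131) and -0.60 ± 0.16 in calvarial-OB (adjusted p = 0.00702) against fibroblast, and 1.39 ± 0.16 in iOB against calvarial-OB (adjusted p = 2.7e-05). Atf6 encodes a membrane-bound sensor that is cut in the Golgi to release a transcription factor. It had 126, 109 and 106 CPM in the iOB libraries, 49.3, 43.9 and 47.6 CPM in the calvarial-OB libraries, and 83.8, 90.9 and 87.1 CPM in the fibroblast libraries. The order was the same as for Ern1, again with no overlap. On the log2 scale Atf6 differed by 0.38 ± 0.10 in iOB (adjusted p = 0.00924) and -0.89 ± 0.10 in calvarial-OB (adjusted p = 1.63e-05) against fibroblast, and 1.28 ± 0.10 in iOB against calvarial-OB (adjusted p = 2.39e-06). Without iOB replicate 1 the adjusted p of Atf6 for iOB against fibroblast was 0.0516.

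Xbp1 encodes the transcription factor made from the spliced mRNA; counts per gene do not separate its spliced form. It had 128, 143 and 131 CPM in the iOB libraries, 128, 167 and 161 CPM in the calvarial-OB libraries, and 120.1, 127 and 128 CPM in the fibroblast libraries. The iOB and calvarial-OB values all lay above the fibroblast values, by little. No comparison passed the test: the log2 fold change was 0.10 ± 0.11 in iOB (adjusted p = 0.509) and 0.28 ± 0.11 in calvarial-OB (adjusted p = 0.0506) against fibroblast, and -0.18 ± 0.11 in iOB against calvarial-OB (adjusted p = 0.204). Calvarial-OB replicate 1 was the lowest of its group, and without it the adjusted p was 0.0038 for calvarial-OB against fibroblast and 0.0425 for iOB against calvarial-OB. DESeq2 called it higher in calvarial-OB than in fibroblast (adjusted p = 0.0342).

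**Figure D2:**
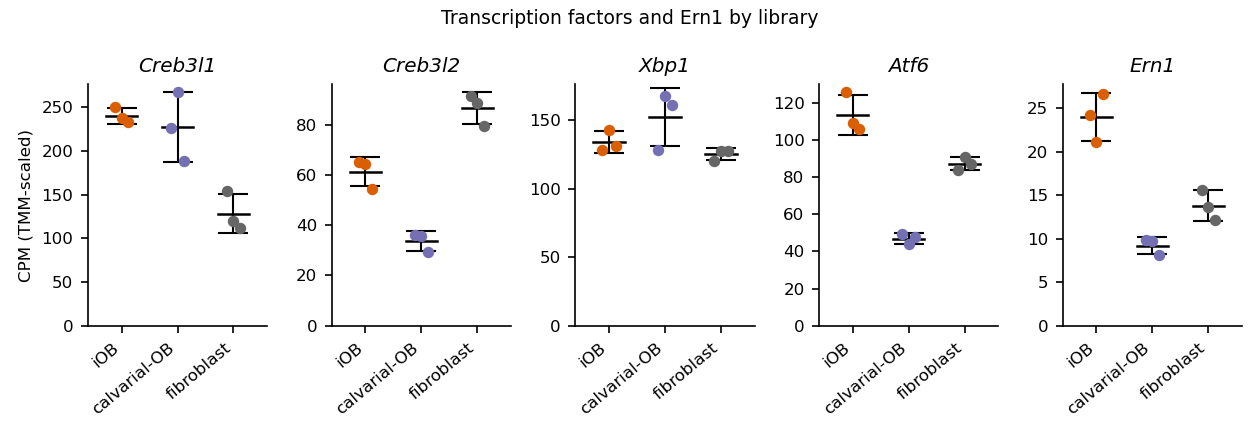
Each panel shows 1 regulator, with CPM on the y axis from 0 and a point per library; bars are the mean and SD of 3 libraries. Creb3l1 is higher in iOB and calvarial-OB than in fibroblast, Creb3l2 is lowest in calvarial-OB, and Atf6 and Ern1 are highest in iOB and lowest in calvarial-OB.

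Of the 11 chaperones and co-chaperones, 2 rose in iOB relative to fibroblast (Dnajb9, Sdf2l1) and 3 fell (Hsp90b1, Calr, Canx); in calvarial-OB 2 rose (Sdf2l1, Manf) and 4 fell (Hsp90b1, Calr, Canx, Hyou1). Against calvarial-OB, 5 were higher in iOB (Canx, Dnajb9, Dnajb11, Dnajc3, Hyou1); the other 6 did not pass. Dnajb9 encodes ERdj4, a co-chaperone of BiP and a known target of XBP1. It had 95.7, 81.2 and 71.3 CPM in the iOB libraries, 28.3, 31.9 and 39.4 CPM in the calvarial-OB libraries, and 31.6, 37.2 and 31.2 CPM in the fibroblast libraries. Every iOB value was above every other value, while calvarial-OB and fibroblast overlapped. For Dnajb9 the log2 fold change was 1.32 ± 0.15 for iOB against fibroblast (adjusted p = 2.43e-05), 1.31 ± 0.15 for iOB against calvarial-OB (adjusted p = 2.7e-05) and 0.01 ± 0.15 for calvarial-OB against fibroblast (adjusted p = 0.976).

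Sdf2l1 encodes an ER protein that works with the co-chaperone ERdj3. It had 26.9, 29.6 and 27.2 CPM in the iOB libraries, 27.8, 23.4 and 21.4 CPM in the calvarial-OB libraries, and 17.5, 14.4 and 17.5 CPM in the fibroblast libraries. Both osteoblast cultures lay above fibroblast in every library. The log2 fold change was 0.75 ± 0.14 in iOB (adjusted p = 0.000978) and 0.54 ± 0.14 in calvarial-OB (adjusted p = 0.00534) against fibroblast, and 0.21 ± 0.14 in iOB against calvarial-OB (adjusted p = 0.224, and 0.0302 without calvarial-OB replicate 1).

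Canx encodes calnexin, a membrane chaperone that binds glycoproteins through their sugars. It had 609, 571 and 578 CPM in the iOB libraries, 364, 387 and 470.2 CPM in the calvarial-OB libraries, and 764, 813 and 935 CPM in the fibroblast libraries. The groups did not overlap, and calvarial-OB was lowest. Canx had a log2 fold change of -0.51 ± 0.12 in iOB (adjusted p = 0.0041) and -1.04 ± 0.12 in calvarial-OB (adjusted p = 1.62e-05) against fibroblast, and 0.53 ± 0.12 in iOB against calvarial-OB (adjusted p = 0.0033). Hsp90b1 encodes GRP94, the HSP90 of the ER. It had 1152, 1107 and 1037 CPM in the iOB libraries, 779, 921 and 1041 CPM in the calvarial-OB libraries, and 1486, 1629 and 1703 CPM in the fibroblast libraries. All fibroblast values were above all others, and iOB and calvarial-OB overlapped by 1 library. The log2 fold change was -0.55 ± 0.12 in iOB (adjusted p = 0.00268) and -0.81 ± 0.12 in calvarial-OB (adjusted p = 0.000107) against fibroblast, and 0.27 ± 0.12 in iOB against calvarial-OB (adjusted p = 0.081, and 0.00973 without calvarial-OB replicate 3).

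Hyou1 encodes a partner of BiP that exchanges its nucleotide. It had 165, 156 and 170.0 CPM in the iOB libraries, 83.2, 124 and 88.6 CPM in the calvarial-OB libraries, and 165, 190.2 and 196 CPM in the fibroblast libraries. The calvarial-OB values lay below all others, and iOB and fibroblast overlapped. Its log2 fold change was -0.90 ± 0.14 for calvarial-OB against fibroblast (adjusted p = 0.000227), 0.73 ± 0.14 for iOB against calvarial-OB (adjusted p = 0.00136) and -0.16 ± 0.14 for iOB against fibroblast (adjusted p = 0.376). Calr encodes calreticulin, the soluble relative of calnexin. It had 1423, 1414 and 1328 CPM in the iOB libraries, 1101, 1283 and 1118 CPM in the calvarial-OB libraries, and 1560.2, 1694 and 1845 CPM in the fibroblast libraries. Calr gave a log2 fold change of -0.29 ± 0.10 in iOB (adjusted p = 0.0393) and -0.54 ± 0.10 in calvarial-OB (adjusted p = 0.000863) against fibroblast, and 0.25 ± 0.10 in iOB against calvarial-OB (adjusted p = 0.0652). The Calr call in iOB was near the threshold: leaving out fibroblast replicate 2 or 3, or any iOB replicate, gave adjusted p between 0.0707 and 0.205, and library totals alone gave 0.429; for iOB against calvarial-OB it passed without fibroblast replicate 3 (adjusted p = 0.038) or calvarial-OB replicate 2 (0.0264).

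Hspa5, which encodes the central ER chaperone BiP, did not pass any of the 3 comparisons. It had 1153, 1109 and 968 CPM in the iOB libraries, 773, 1047 and 1032 CPM in the calvarial-OB libraries, and 1026, 1090.2 and 1126 CPM in the fibroblast libraries, and the groups overlapped. On the log2 scale Hspa5 differed by -0.01 ± 0.13 in iOB (adjusted p = 0.978) and -0.19 ± 0.13 in calvarial-OB (adjusted p = 0.234) against fibroblast, and 0.18 ± 0.13 in iOB against calvarial-OB (adjusted p = 0.264). Of the BiP co-chaperones Dnajb11 (ERdj3) and Dnajc3, both were higher in iOB than in calvarial-OB and did not pass the test against fibroblast in either culture. Dnajb11 averaged 131 ± 8.35 CPM in iOB and 95.2 ± 14.2 CPM in calvarial-OB, a log2 fold change of 0.46 ± 0.13, adjusted p = 0.011. Dnajc3 averaged 171 ± 10.1 CPM in iOB and 133 ± 24.6 CPM in calvarial-OB, a log2 fold change of 0.35 ± 0.13, adjusted p = 0.0375. That call was lost without calvarial-OB replicate 2 or without any 1 of the iOB replicates (adjusted p 0.0586 to 0.122). Against fibroblast, Dnajb11 passed in calvarial-OB without fibroblast replicate 1 (adjusted p = 0.047) or calvarial-OB replicate 2 (0.0438), and Dnajc3 passed without calvarial-OB replicate 3 (adjusted p = 0.00531), in both cases as lower. Manf, a secreted ER protein, averaged 138 ± 21.2 CPM in calvarial-OB and 111 ± 10.0 CPM in fibroblast (log2 fold change 0.31 ± 0.12, adjusted p = 0.0467), and that call was lost when any of 6 libraries was left out (adjusted p 0.0655 to 0.151). In iOB it passed without calvarial-OB replicate 1 (adjusted p = 0.0487), against 0.162 with all libraries. Creld2, an ER protein induced by unfolded protein, ranged over 32.9 to 49.3 CPM in iOB, 35.5 to 43.3 CPM in calvarial-OB and 27.8 to 36.1 CPM in fibroblast, with no call.

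Promoter stretches are shown for the listed genes that hold a motif of the unfolded protein response, so that their values can be read beside the letters they share. RefSeq promoters (GRCm38.p6, 250 bases before to 50 after the gene's start) were matched by symbol for 30 of the 39 genes. They were searched on both strands for 3 motifs: ERSE, which is CCAAT, then 9 bases of any kind, then CCACG, and is bound by ATF6 together with NF-Y; ERSE-II, which is ATTGG, any base, then CCACG; and UPRE, which is TGACGTGG, a site of XBP1. The letters CCACG also occur in UPRE read on the other strand, but no listed promoter held more than 1 of the 3 motifs. ERSE was found in 7 of the 30 promoters, Hsp90b1 holding 2 copies, against 0.137% of the promoters of all 27025 genes in the table. ERSE-II was found in 1 of the 30 (Dnajb11, 0.0444% of all), and UPRE in 3 (Kdelr3, Sec23a and Sec24d, 0.714% of all). A match is a description of the letters and not a measured binding site. The genes were chosen for their role in ER folding and secretion, so the shares among their promoters are not a test either. The stretches below run 5′ to 3′ on the strand of the gene, with 25 bases on either side; the capitals are the fixed letters of the motif, and ERSE reads CGTGG and then ATTGG where it lies on the opposite strand.
Hspa5 chr2:34772000-34772068 (+ strand): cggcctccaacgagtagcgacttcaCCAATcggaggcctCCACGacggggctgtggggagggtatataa
Hsp90b1, far copy, chr10:86705613-86705681 (- strand): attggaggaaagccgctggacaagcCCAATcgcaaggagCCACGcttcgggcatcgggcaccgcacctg
Hsp90b1, near copy, chr10:86705508-86705576 (- strand): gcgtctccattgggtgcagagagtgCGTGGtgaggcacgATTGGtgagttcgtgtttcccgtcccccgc
Calr chr8:84847050-84847118 (- strand): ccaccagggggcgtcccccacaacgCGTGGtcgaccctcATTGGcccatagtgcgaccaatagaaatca
Canx chr11:50325775-50325843 (- strand): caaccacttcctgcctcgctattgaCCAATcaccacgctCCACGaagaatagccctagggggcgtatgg
Pdia6 chr12:17266466-17266534 (+ strand): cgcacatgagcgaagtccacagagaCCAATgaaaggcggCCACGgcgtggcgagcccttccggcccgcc
Dnajc3 chr14:118937802-118937870 (+ strand): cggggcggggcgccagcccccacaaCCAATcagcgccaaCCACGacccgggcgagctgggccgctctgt
Creld2 chr15:88819495-88819563 (+ strand): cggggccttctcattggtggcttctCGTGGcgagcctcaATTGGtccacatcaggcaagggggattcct
Dnajb11 chr16:22857827-22857887 (+ strand): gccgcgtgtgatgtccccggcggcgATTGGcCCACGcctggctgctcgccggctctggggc

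The ERSE motif began between 65 bases (Hspa5) and 212 bases (the far Hsp90b1 copy) before the annotated start, and the Dnajb11 motif just after it. Of the 7 genes with ERSE, 4 fell in iOB relative to fibroblast (Hsp90b1, Calr, Canx, Pdia6) and 3 did not pass (Hspa5, Dnajc3, Creld2). In calvarial-OB the calls against fibroblast were on the same 4 genes, all lower. Against calvarial-OB, iOB were higher for 3 of the 7 (Canx, Dnajc3, Pdia6), and the other 4 did not pass. Over all genes, 20.6% were lower in iOB and 27.4% in calvarial-OB than in fibroblast, and 24.7% were higher in iOB than in calvarial-OB. The falls of Calr and Pdia6 in iOB were lost with library totals alone (edgeR adjusted p = 0.429 and 0.123). Whether the motif has a part in these calls was not tested. The 2 chaperones that rose in iOB, Dnajb9 and Sdf2l1, had no match to these letters in the searched window.

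The 4 disulfide isomerases, which form and shuffle disulfide bonds, moved one way against fibroblast: 3 fell in iOB (Pdia4, Pdia6, P4hb) and all 4 in calvarial-OB. P4hb encodes protein disulfide isomerase, which is also the beta subunit of the prolyl 4-hydroxylase that modifies collagen. It had 851, 904 and 834 CPM in the iOB libraries, 929, 1210.5 and 1043 CPM in the calvarial-OB libraries, and 1598, 1678 and 1777 CPM in the fibroblast libraries. All fibroblast values were above all others, and iOB was lowest. For P4hb the log2 fold change was -0.96 ± 0.11 in iOB (adjusted p = 2.89e-05) and -0.67 ± 0.11 in calvarial-OB (adjusted p = 0.000305) against fibroblast. Between iOB and calvarial-OB it was -0.30 ± 0.11 (adjusted p = 0.0427), a call lost when any of 7 of the 9 libraries was left out (adjusted p 0.0566 to 0.183) and with library totals alone (0.175).

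Pdia4 encodes ERp72. It had 221, 229 and 222 CPM in the iOB libraries, 167, 238 and 219.7 CPM in the calvarial-OB libraries, and 327, 362 and 362 CPM in the fibroblast libraries. iOB and calvarial-OB overlapped and both lay below fibroblast. Pdia4 had a log2 fold change of -0.64 ± 0.13 in iOB (adjusted p = 0.00138) and -0.75 ± 0.13 in calvarial-OB (adjusted p = 0.00031) against fibroblast, and 0.11 ± 0.12 in iOB against calvarial-OB (adjusted p = 0.515). Pdia6 encodes the isomerase P5. It had 403, 395 and 402 CPM in the iOB libraries, 290.5, 356 and 332 CPM in the calvarial-OB libraries, and 505, 529 and 553 CPM in the fibroblast libraries. The groups did not overlap, with calvarial-OB lowest. The log2 fold change was -0.40 ± 0.10 in iOB (adjusted p = 0.00636, and 0.123 with library totals alone) and -0.70 ± 0.10 in calvarial-OB (adjusted p = 9.6e-05) against fibroblast. For iOB against calvarial-OB it was 0.29 ± 0.10, adjusted p = 0.0279, and without any 1 of the iOB replicates the adjusted p was 0.0623 to 0.0775. Pdia3, or ERp57, which works with calnexin and calreticulin, averaged 807 ± 134 CPM in calvarial-OB and 1155 ± 71.9 CPM in fibroblast (log2 fold change -0.52 ± 0.12, adjusted p = 0.00334). In iOB it averaged 930.4 ± 29.6 CPM and did not pass against fibroblast (log2 fold change -0.31 ± 0.12, adjusted p = 0.0567), except without calvarial-OB replicate 1 or 3 (adjusted p 0.0252 and 0.0256); against calvarial-OB it passed without calvarial-OB replicate 3 (adjusted p = 0.0145).

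Among the 4 collagen folding factors, Crtap rose in both osteoblast cultures, Serpinh1 fell in iOB, Ppib rose in calvarial-OB and Fkbp10 did not pass. Crtap encodes a partner of the prolyl 3-hydroxylase of collagen. It had 316, 329 and 339 CPM in the iOB libraries, 304, 329 and 284 CPM in the calvarial-OB libraries, and 180.1, 171 and 170.0 CPM in the fibroblast libraries. All osteoblast-culture values were above all fibroblast values, and the 2 cultures overlapped. Its log2 fold change was 0.92 ± 0.09 in iOB (adjusted p = 1.1e-05) and 0.82 ± 0.09 in calvarial-OB (adjusted p = 1.63e-05) against fibroblast, and 0.10 ± 0.09 in iOB against calvarial-OB (adjusted p = 0.393).

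Serpinh1 encodes HSP47, the chaperone that binds the procollagen triple helix. It had 1585, 1611 and 1479 CPM in the iOB libraries, 2064, 2562 and 1952 CPM in the calvarial-OB libraries, and 2323, 2399 and 2366 CPM in the fibroblast libraries. The iOB values lay below all others, and calvarial-OB and fibroblast overlapped. Serpinh1 gave a log2 fold change of -0.60 ± 0.11 for iOB against fibroblast (adjusted p = 0.00114), -0.49 ± 0.11 for iOB against calvarial-OB (adjusted p = 0.00371) and -0.11 ± 0.11 for calvarial-OB against fibroblast (adjusted p = 0.44). Ppib encodes cyclophilin B, a prolyl isomerase that works with CRTAP. It had 114, 114 and 109.6 CPM in the iOB libraries, 124, 125 and 151 CPM in the calvarial-OB libraries, and 110.2, 105 and 114 CPM in the fibroblast libraries. On the log2 scale Ppib differed by 0.29 ± 0.10, adjusted p = 0.0319 for calvarial-OB against fibroblast, a call lost when any of 5 libraries was left out (adjusted p 0.0533 to 0.109). It was 0.04 ± 0.10 for iOB against fibroblast (adjusted p = 0.8) and -0.25 ± 0.10 for iOB against calvarial-OB (adjusted p = 0.0637). Fkbp10, a prolyl isomerase of the ER, ranged over 355 to 382 CPM in iOB, 324.5 to 458 CPM in calvarial-OB and 405 to 449 CPM in fibroblast.

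These factors were set against their main cargo, collagen I. Col1a1, 1 of the 2 collagen I chains, averaged 28662 ± 3019 CPM in iOB, 50309 ± 15088 CPM in calvarial-OB and 18241 ± 753 CPM in fibroblast (SD, n = 3 each). Per 1000 counts of Col1a1 and Col1a2 in the same library, the 39 listed genes together had 245, 288 and 272 in iOB, 107, 145 and 196 in calvarial-OB and 497, 509.8 and 574 in fibroblast. No 2 groups overlapped, with fibroblast highest and calvarial-OB lowest. Serpinh1 had 28.1, 34.3 and 31.1 in iOB, 18.9, 25.5 and 28.3 in calvarial-OB and 72.6, 72.9 and 77.9 in fibroblast, on the same scale. P4hb had 15.1, 19.3 and 17.6 in iOB, 8.52, 12.1 and 15.1 in calvarial-OB and 49.96, 51.0 and 58.5 in fibroblast. For both genes the osteoblast cultures lay below fibroblast in every library and overlapped each other. Crtap had 5.60, 7.02 and 7.12 in iOB, 2.79, 3.28 and 4.12 in calvarial-OB and 5.63, 5.19 and 5.60 in fibroblast, so that it alone of these overlapped between iOB and fibroblast. For each contrast without overlap the two-sided exact permutation p was 0.1, the smallest that 3 against 3 allows (adjusted p = 0.12 over 30 such tests); for Crtap in iOB against fibroblast it was 0.2 (adjusted p = 0.207). The ratio falls where collagen counts rise, even with a listed gene's own level unchanged.

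**Figure D3:**
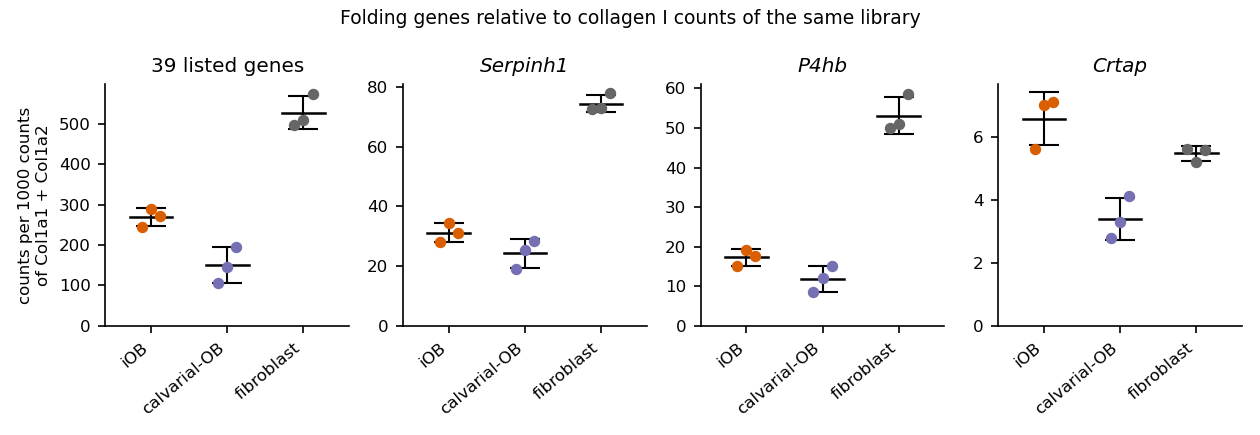
Counts of the 39 listed genes together, Serpinh1, P4hb and Crtap per 1000 counts of Col1a1 and Col1a2 in the same library (y axes from 0), by group; points are libraries and bars the mean and SD of 3. The summed ratio is 268 ± 22.02 in iOB, 149 ± 44.7 in calvarial-OB and 527 ± 40.9 in fibroblast, and Crtap is the panel in which iOB reaches the fibroblast values.

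None of the 5 translocation factors passed the test in iOB against fibroblast, where 43.3% of all genes did, whereas in calvarial-OB 2 rose (Sec61b, Ssr2) and 1 fell (Ssr3). By edgeR, 0 of the 5 also had an unadjusted p below 0.05 in iOB, and DESeq2 called 0. Sec61b encodes a subunit of the Sec61 channel. It had 61.1, 50.6 and 63.0 CPM in the iOB libraries, 91.3, 114 and 99.0 CPM in the calvarial-OB libraries, and 48.3, 54.8 and 56.9 CPM in the fibroblast libraries. The calvarial-OB values were above all others, and iOB and fibroblast overlapped. For Sec61b the log2 fold change was 0.93 ± 0.12 for calvarial-OB against fibroblast (adjusted p = 5.36e-05), -0.80 ± 0.12 for iOB against calvarial-OB (adjusted p = 0.00025) and 0.12 ± 0.12 for iOB against fibroblast (adjusted p = 0.451). Ssr2 encodes a subunit of the translocon-associated protein complex beside that channel. It had 109, 127 and 108 CPM in the iOB libraries, 152, 207 and 162 CPM in the calvarial-OB libraries, and 117, 117 and 106 CPM in the fibroblast libraries. Its pattern was that of Sec61b: the log2 fold change was 0.62 ± 0.13 for calvarial-OB against fibroblast (adjusted p = 0.00149), -0.60 ± 0.13 for iOB against calvarial-OB (adjusted p = 0.00248) and 0.02 ± 0.13 for iOB against fibroblast (adjusted p = 0.918).

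Sec61a1 encodes the channel pore itself. It had 276, 276 and 288 CPM in the iOB libraries, 238, 366 and 302 CPM in the calvarial-OB libraries, and 287, 359 and 371 CPM in the fibroblast libraries, and the groups overlapped. Sec61a1 had a log2 fold change of -0.28 ± 0.15 in iOB (adjusted p = 0.156) and -0.17 ± 0.15 in calvarial-OB (adjusted p = 0.36) against fibroblast. Ssr1, another subunit of the translocon-associated complex, had 300.5, 308 and 287 CPM in the iOB libraries, 284, 387 and 434 CPM in the calvarial-OB libraries, and 328, 341 and 348 CPM in the fibroblast libraries. Calvarial-OB replicate 1 was the lowest library for Ssr1, and without it calvarial-OB passed as higher than fibroblast (adjusted p = 0.0286, against 0.472 with it) and iOB as lower than calvarial-OB (0.00279, against 0.0842). Ssr3, a further subunit, averaged 417 ± 97.2 CPM in calvarial-OB and 544 ± 18.3 CPM in fibroblast (log2 fold change -0.38 ± 0.15, adjusted p = 0.0438), a call lost when any of 8 of the 9 libraries was left out (adjusted p 0.05 to 0.0894); in iOB against calvarial-OB it passed without calvarial-OB replicate 3 (adjusted p = 0.0125).

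Of the 7 COPII export factors, 1 fell in iOB relative to fibroblast (Sec23a) and 4 in calvarial-OB (Sec23a, Sec24d, Sec31a, Mia3), the others not passing. Sec23a and Sec24d form the inner coat, which gathers cargo, and mutations of either impair collagen export. Sec23a had 140.3, 146 and 136 CPM in the iOB libraries, 120.5, 147 and 171 CPM in the calvarial-OB libraries, and 223, 235 and 241 CPM in the fibroblast libraries. All fibroblast values lay above all others, and iOB fell within the calvarial-OB range. Its log2 fold change was -0.73 ± 0.12 in iOB (adjusted p = 0.000521) and -0.67 ± 0.12 in calvarial-OB (adjusted p = 0.000599) against fibroblast, and -0.06 ± 0.12 in iOB against calvarial-OB (adjusted p = 0.73). Sec24d averaged 175 ± 27.8 CPM in calvarial-OB and 223 ± 10.6 CPM in fibroblast (log2 fold change -0.35 ± 0.12, adjusted p = 0.0241), and without fibroblast replicate 1 or 2 the adjusted p was 0.06 to 0.0625. In iOB it averaged 191 ± 7.20 CPM and did not pass (log2 fold change -0.22 ± 0.12, adjusted p = 0.148). Both genes, and the retrieval receptor gene Kdelr3, hold the UPRE letters near the start, shown in capitals as above.
Sec23a chr12:59011979-59012036 (- strand): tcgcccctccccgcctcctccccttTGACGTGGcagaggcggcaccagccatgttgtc
Sec24d chr3:123267445-123267502 (+ strand): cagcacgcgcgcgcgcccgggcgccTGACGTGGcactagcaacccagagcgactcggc
Kdelr3 chr15:79516353-79516410 (+ strand): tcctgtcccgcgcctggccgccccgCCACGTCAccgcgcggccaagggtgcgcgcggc

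In Sec24d and Kdelr3 the UPRE letters lay 26 and 30 bases before the annotated start, and in Sec23a just after it; in Kdelr3 they lie on the opposite strand. The 3 genes did not move together: in iOB Sec23a and Kdelr3 fell relative to fibroblast and Sec24d did not pass, whereas in calvarial-OB Sec23a and Sec24d fell and Kdelr3 rose.

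Mia3 encodes TANGO1, the receptor that loads procollagen into COPII carriers. It had 235, 207 and 221 CPM in the iOB libraries, 156, 179.8 and 186 CPM in the calvarial-OB libraries, and 244, 236 and 243 CPM in the fibroblast libraries. The calvarial-OB values lay below all others. Mia3 gave a log2 fold change of -0.47 ± 0.10 for calvarial-OB against fibroblast (adjusted p = 0.0017), 0.34 ± 0.10 for iOB against calvarial-OB (adjusted p = 0.0138, and 0.0599 without iOB replicate 1) and -0.13 ± 0.10 for iOB against fibroblast (adjusted p = 0.327). Sec31a encodes an outer coat subunit. It had 423, 407 and 397 CPM in the iOB libraries, 348, 457 and 393 CPM in the calvarial-OB libraries, and 485, 485 and 479.7 CPM in the fibroblast libraries. iOB lay below fibroblast in every library without passing the test (log2 fold change -0.24 ± 0.11, adjusted p = 0.0899), and the calvarial-OB call (log2 fold change -0.28 ± 0.11, adjusted p = 0.0449) was lost when any of 8 of the 9 libraries was left out (adjusted p 0.0561 to 0.0923). Sar1a encodes the GTPase that starts the coat. It had 247, 227 and 232 CPM in the iOB libraries, 258, 310.2 and 311 CPM in the calvarial-OB libraries, and 251, 258 and 267 CPM in the fibroblast libraries. Here calvarial-OB was highest: the log2 fold change was -0.32 ± 0.10, adjusted p = 0.0218 for iOB against calvarial-OB, and 0.18 ± 0.10, adjusted p = 0.148 for calvarial-OB against fibroblast. The iOB-against-calvarial-OB call was lost without calvarial-OB replicate 2, iOB replicate 2 or iOB replicate 3 (adjusted p 0.0649 to 0.0823), and without calvarial-OB replicate 1 Sar1a passed as higher in calvarial-OB than in fibroblast (0.0284). Its paralog Sar1b ranged over 35.3 to 45.4 CPM in iOB, 35.1 to 51.6 CPM in calvarial-OB and 41.9 to 43.4 CPM in fibroblast. Sec13, the other outer coat subunit, ranged over 119 to 137 CPM in iOB, 104.5 to 182 CPM in calvarial-OB and 127 to 144 CPM in fibroblast, the lowest value being that of calvarial-OB replicate 1, without which it passed as higher in calvarial-OB than in fibroblast (adjusted p = 0.0101) and lower in iOB than in calvarial-OB (0.00852).

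The 3 receptors split between the 2 osteoblast cultures. Kdelr3 encodes a receptor that returns escaped ER proteins from the Golgi. It had 58.1, 58.1 and 63.6 CPM in the iOB libraries, 99.2, 116 and 97.1 CPM in the calvarial-OB libraries, and 71.0, 79.7 and 77.0 CPM in the fibroblast libraries. The groups did not overlap: calvarial-OB was highest and iOB lowest. On the log2 scale Kdelr3 differed by -0.34 ± 0.10 in iOB (adjusted p = 0.0202) and 0.45 ± 0.10 in calvarial-OB (adjusted p = 0.00267) against fibroblast, and -0.79 ± 0.10 in iOB against calvarial-OB (adjusted p = 8.04e-05). The fall in iOB against fibroblast was lost when any of 4 libraries was left out, namely fibroblast replicate 2 or 3 and iOB replicate 1 or 2 (adjusted p 0.0678 to 0.105), and with library totals alone (0.278). Kdelr2, a paralog with the same role, had 240.3, 228 and 229 CPM in the iOB libraries, 240.5, 339 and 319.6 CPM in the calvarial-OB libraries, and 248, 278 and 281 CPM in the fibroblast libraries. It was lower in iOB than in calvarial-OB (log2 fold change -0.37 ± 0.13, adjusted p = 0.0307), a call lost when any of 6 libraries was left out (adjusted p 0.0543 to 0.12); without calvarial-OB replicate 1 it passed as higher in calvarial-OB than in fibroblast (0.0219). Lman1 encodes ERGIC-53, a lectin that carries glycoproteins out of the ER. It had 256, 259.6 and 257 CPM in the iOB libraries, 192, 219 and 208 CPM in the calvarial-OB libraries, and 243, 256 and 259 CPM in the fibroblast libraries. The calvarial-OB values lay below all others: the log2 fold change was -0.29 ± 0.09 for calvarial-OB against fibroblast (adjusted p = 0.0157, and 0.0893 with library totals alone) and 0.32 ± 0.09 for iOB against calvarial-OB (adjusted p = 0.0116).

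**Figure D4:**
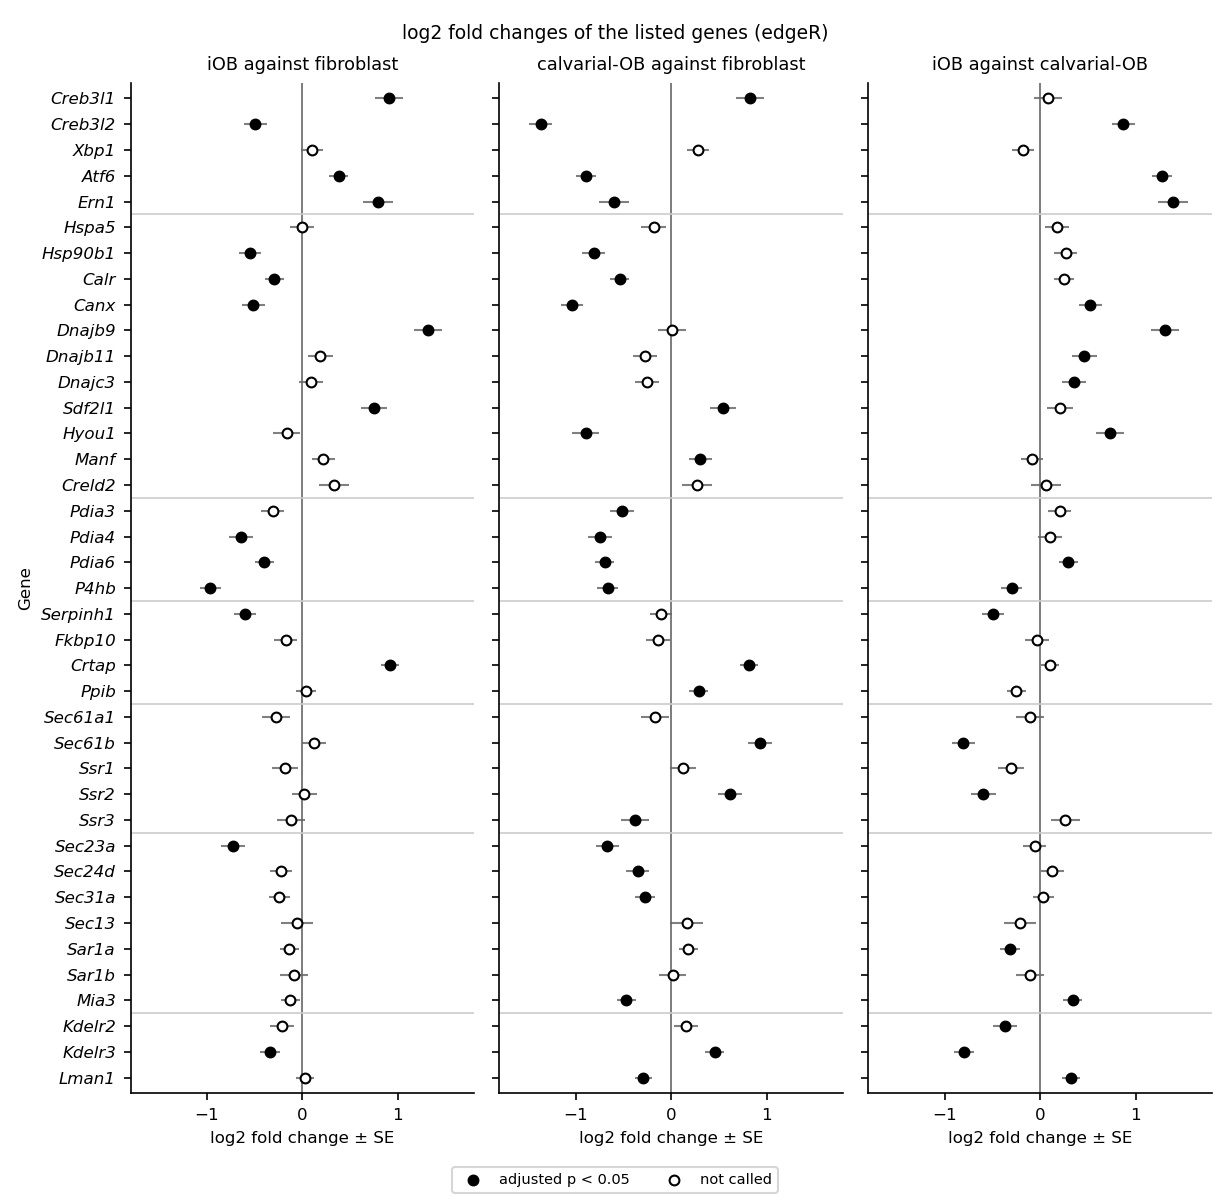
log2 fold changes of the 39 listed genes (x axes, bars ± SE, 3 libraries per group) for iOB against fibroblast, calvarial-OB against fibroblast and iOB against calvarial-OB; filled points have an adjusted p below 0.05. In the first panel 6 filled points lie right of 0 and 10 left, in the second 8 and 17, and in the third 11 and 7.

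Some of these values can hold reads of other genes. In the RefSeq annotation (GRCm38.p6) 7 of the 39 genes overlap a protein-coding gene (Atf6, Hspa5, Pdia3, Pdia6, Fkbp10, Ppib and Kdelr3) and 8 overlap only non-coding genes or a pseudogene (Creb3l2, Dnajb11, Dnajc3, Pdia4, Crtap, Ssr1, Sar1a and Mia3). Whether the authors' counting used strand is not stated, and the part of the overlapping genes was not tested.

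The other genes of the pathway were taken from 7 lists of 114 genes in all, of which 113 were in the count table and 112 were tested. Among the 112, 26 were higher and 24 lower in iOB than in fibroblast, 24 higher and 37 lower in calvarial-OB than in fibroblast, and 33 higher and 20 lower in iOB than in calvarial-OB. Their medians were -0.01, -0.05 and 0.10 on the log2 scale in these 3 comparisons. The share called was 44.6%, 54.5% and 47.3%, near the backgrounds of 43.3%, 55.8% and 48.8%.

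The other collagen-modifying genes, 17 in number, had more called members than the background. The list was chosen with earlier results of these data known, so these shares are not a test. In iOB 6 rose and 6 fell relative to fibroblast (70.6%), in calvarial-OB 5 rose and 6 fell (64.7%), and in iOB against calvarial-OB 5 were higher and 5 lower (58.8%). Log2 fold changes against fibroblast ran over -1.68 to 3.72 in iOB and -1.27 to 3.28 in calvarial-OB, so the largest change in each was a rise. The 3 with the smallest adjusted p in iOB all fell, and each encodes an enzyme that hydroxylates procollagen before it folds. P4ha1 averaged 162 ± 4.62 CPM in iOB and 438 ± 5.36 CPM in fibroblast (log2 fold change -1.43 ± 0.10, adjusted p = 7.99e-07), the catalytic partner of P4hb. P4ha2 averaged 89.8 ± 5.40 CPM in iOB and 288 ± 55.3 CPM in fibroblast (log2 fold change -1.68 ± 0.15, adjusted p = 4.84e-06), a second such partner, and Plod1 averaged 106 ± 4.24 CPM in iOB and 313 ± 10.5 CPM in fibroblast (log2 fold change -1.57 ± 0.12, adjusted p = 1.27e-06), a lysyl hydroxylase. All 3 fell in calvarial-OB as well, with log2 fold changes against fibroblast of -0.50 ± 0.10, adjusted p = 0.00129 for P4ha1, -1.04 ± 0.15, adjusted p = 0.000105 for P4ha2 and -0.94 ± 0.12, adjusted p = 3.47e-05 for Plod1. All 3 were also lower in iOB than in calvarial-OB, by log2 fold changes for P4ha1, P4ha2 and Plod1 of -0.94 ± 0.10 (adjusted p = 2.07e-05), -0.64 ± 0.15 (adjusted p = 0.00452) and -0.63 ± 0.12 (adjusted p = 0.00104). P4ha3, the third catalytic subunit gene, rose in both cultures, with 136, 142 and 142 CPM in the iOB libraries, 132, 155 and 149 CPM in the calvarial-OB libraries, and 63.5, 74.2 and 74.8 CPM in the fibroblast libraries (log2 fold change 0.98 ± 0.11, adjusted p = 1.58e-05 in iOB, and 1.04 ± 0.10, adjusted p = 6.01e-06 in calvarial-OB). Plod2, another lysyl hydroxylase gene, fell in both, with 116, 113 and 107 CPM in the iOB libraries, 106, 105 and 149 CPM in the calvarial-OB libraries, and 271, 279 and 319 CPM in the fibroblast libraries (log2 fold change -1.37 ± 0.14, adjusted p = 1.04e-05 in iOB, and -1.27 ± 0.14, adjusted p = 1.09e-05 in calvarial-OB). Sparc, a collagen-binding matrix protein, averaged 17550.0 ± 1377 CPM in calvarial-OB and 9017 ± 137 CPM in fibroblast (log2 fold change 0.96 ± 0.11, adjusted p = 1.5e-05).

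Among 13 genes of the unfolded protein response outside the list, 4 rose and 3 fell in iOB, and 2 rose and 5 fell in calvarial-OB, relative to fibroblast. In each culture 53.85% were called, against 43.3% of all genes in iOB and 55.8% in calvarial-OB. Log2 fold changes against fibroblast ran over -2.30 to 4.32 in iOB and -3.51 to 5.74 in calvarial-OB. The 4.32 in iOB belonged to a gene other than those described next. Trib3 and Ddit3, which are induced through the PERK arm, were lower in both cultures than in fibroblast. They were named for their small adjusted p. Other stress-induced genes of this list, such as Atf4 and Atf3, are not described for these libraries, and the activity of the arm was not tested. Trib3 had 13.01, 9.17 and 10.5 CPM in the iOB libraries, 7.26, 5.03 and 2.47 CPM in the calvarial-OB libraries, and 43.4, 60.8 and 56.4 CPM in the fibroblast libraries. Both osteoblast cultures lay below fibroblast in every library (log2 fold change -2.30 ± 0.28 in iOB, adjusted p = 3.64e-05, and -3.51 ± 0.30 in calvarial-OB, adjusted p = 1.3e-06). Ddit3 averaged 16.8 ± 2.97 CPM in iOB and 44.7 ± 5.37 CPM in fibroblast (log2 fold change -1.41 ± 0.26, adjusted p = 0.000989), and 19.7 ± 9.05 CPM in calvarial-OB (-1.20 ± 0.25, adjusted p = 0.00166). Creb3l3, a relative of Creb3l1 best known in liver, had 6.96, 3.44 and 5.07 CPM in the iOB libraries, 15.9, 22.9 and 12.4 CPM in the calvarial-OB libraries, and 0.377, 0.283 and 0.249 CPM in the fibroblast libraries; it was near 0 in fibroblast and higher in both cultures (adjusted p = 2.84e-05 in iOB and 3.86e-07 in calvarial-OB). Mbtps1, the protease that cuts ATF6 in the Golgi, averaged 253 ± 8.14 CPM in iOB and 133 ± 8.44 CPM in calvarial-OB (log2 fold change 0.93 ± 0.10, adjusted p = 1.56e-05), and Eif2ak3, which encodes PERK, averaged 71.6 ± 3.24 CPM in iOB and 40.6 ± 4.27 CPM in calvarial-OB (log2 fold change 0.82 ± 0.11, adjusted p = 0.000106). Both therefore stood with Atf6 and Ern1 on the side higher in iOB than in calvarial-OB, where this list had 5 genes higher and 1 lower (46.15% called, against 48.8% of all genes).

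Of 14 genes of ER-associated degradation, which removes proteins that do not fold, 4 were higher in iOB than in fibroblast, 2 higher and 4 lower in calvarial-OB than in fibroblast, and 8 higher in iOB than in calvarial-OB. These were 28.57%, 42.86% and 57.14% of the list, against 43.3%, 55.8% and 48.8% of all genes. Sel1l averaged 238 ± 15.0 CPM in iOB and 138 ± 5.37 CPM in calvarial-OB (log2 fold change 0.79 ± 0.09, adjusted p = 3.07e-05), the scaffold of the main ubiquitin ligase of the pathway. Edem3 averaged 103 ± 9.10 CPM in iOB and 61.9 ± 15.8 CPM in calvarial-OB (log2 fold change 0.73 ± 0.16, adjusted p = 0.00249), which trims sugars of unfolded glycoproteins, and Herpud1 averaged 87.0 ± 5.85 CPM in iOB and 57.6 ± 5.03 CPM in calvarial-OB (log2 fold change 0.59 ± 0.11, adjusted p = 0.000996). Against fibroblast, Sel1l and Edem3 fell in calvarial-OB (log2 fold changes -0.93 ± 0.09, adjusted p = 4.7e-06, and -0.83 ± 0.16, adjusted p = 0.000796). Among 19 other folding enzymes and chaperones, 6 rose and 4 fell in iOB, and 6 rose and 5 fell in calvarial-OB, relative to fibroblast. Together 52.63% and 57.89% were called, against 43.3% and 55.8% of all genes. Ero1l, the oxidase that recharges disulfide isomerases, fell in both cultures, with 53.4 ± 1.64 CPM in iOB and 130.4 ± 13.5 CPM in fibroblast (log2 fold change -1.29 ± 0.13, adjusted p = 1.03e-05) and 54.7 ± 9.37 CPM in calvarial-OB (log2 fold change -1.25 ± 0.13, adjusted p = 7.06e-06). Fkbp11, a prolyl isomerase, rose in both, averaging 38.0 ± 2.27 CPM in iOB and 16.2 ± 0.596 CPM in fibroblast (log2 fold change 1.23 ± 0.14, adjusted p = 3.34e-05) and 67.0 ± 12.96 CPM in calvarial-OB (2.04 ± 0.14, adjusted p = 3.38e-07). Uggt1 averaged 205 ± 10.2 CPM in iOB and 103 ± 10.2 CPM in calvarial-OB (log2 fold change 0.99 ± 0.10, adjusted p = 1.55e-05), the enzyme that tags unfolded glycoproteins for another round with calnexin; against fibroblast it fell in both (log2 fold change -0.40 ± 0.10, adjusted p = 0.00786 in iOB, and -1.39 ± 0.10, adjusted p = 5.72e-07 in calvarial-OB).

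The remaining lists held the machinery around the listed translocation and export factors. Of 19 tested COPII partners, 3 were higher and 5 lower in iOB than in fibroblast, 6 lower in calvarial-OB than in fibroblast, and 4 higher and 1 lower in iOB than in calvarial-OB. That was 42.11%, 31.58% and 26.32% of them, against 43.3%, 55.8% and 48.8% of all genes. Sec16a, which marks ER exit sites, averaged 124 ± 15.4 CPM in calvarial-OB and 234 ± 9.59 CPM in fibroblast (log2 fold change -0.92 ± 0.11, adjusted p = 1.68e-05). Of 20 other translocon, signal recognition and signal peptidase genes, 2 rose and 4 fell in iOB, and 7 rose and 6 fell in calvarial-OB, relative to fibroblast (30.0% and 65.0% called, against 43.3% and 55.8% of all genes). Sec11c, a signal peptidase subunit, averaged 23.7 ± 1.26 CPM in iOB and 9.37 ± 0.332 CPM in fibroblast (log2 fold change 1.34 ± 0.14, adjusted p = 9.88e-06), and 27.2 ± 3.27 CPM in calvarial-OB (1.54 ± 0.13, adjusted p = 1.57e-06). Tram2, which encodes a partner of the channel, fell in both, averaging 8.65 ± 0.702 CPM in iOB and 17.7 ± 0.948 CPM in fibroblast (log2 fold change -1.03 ± 0.18, adjusted p = 0.000724), and 7.25 ± 1.79 CPM in calvarial-OB (-1.31 ± 0.18, adjusted p = 7.24e-05). Sec61g, a small subunit of the Sec61 channel, averaged 61.6 ± 4.03 CPM in iOB and 133 ± 23.2 CPM in calvarial-OB (log2 fold change -1.11 ± 0.13, adjusted p = 4.28e-05), the same direction as Sec61b. Of 10 oligosaccharyltransferase genes, which attach sugars to proteins entering the ER, 1 rose and 2 fell in iOB, and 2 rose and 5 fell in calvarial-OB, relative to fibroblast. These calls made up 30.0% and 70.0% of the 10, against 43.3% and 55.8% of all genes. The catalytic subunit gene Stt3b averaged 156 ± 21.6 CPM in calvarial-OB and 263 ± 19.1 CPM in fibroblast (log2 fold change -0.75 ± 0.12, adjusted p = 0.000203).

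In the authors' deposited table for iOB GFP+ against fibroblast, 23 of the 39 listed genes were called higher and 8 lower, and 8 were not called (deposited adjusted p below 0.05), with a median log2 fold change of 0.35 against 0.03 over all genes. Of all genes with an adjusted p in that table, 23.7% were called higher and 21.7% lower, together 45.5%. In the authors' deposited table for unsorted iOB against fibroblast, 6 were called higher, 10 lower and 23 not, with a median of -0.10 against 0.01 over all genes, where 19.9% were higher and 15.0% lower, together 34.9%. Both tables have fibroblast as their reference, but which libraries entered the iOB GFP+ table is not stated. The difference between sorted and unsorted cells was not tested, and the values are the authors' with no spread per library. At a deposited adjusted p below 0.01 the iOB GFP+ count of listed genes called higher was 13. The shares over all genes given here are for 0.05 and cannot be set against that count. The cells were sorted on a Col1a1 promoter reporter, so collagen I itself was chosen by the gate. None of the 14 macrophage markers had a p-value in the iOB GFP+ table, where their log2 fold changes ran over 2.18 to 4.72, and their part was not tested.

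The regulators were higher in the authors' deposited iOB GFP+ table for 4 of 5 genes, where 23.7% of all genes were called higher. The authors' log2 fold change (± SE) of Creb3l1 was 2.83 ± 0.25 in the iOB GFP+ table (adjusted p = 1.31e-27) and 0.92 ± 0.16 in the iOB table (adjusted p = 3.52e-08). For Ern1 the authors' deposited values were 1.40 ± 0.18 in the iOB GFP+ table (adjusted p = 2.22e-14) and 0.80 ± 0.19 in the iOB table (adjusted p = 0.000117). For Atf6 they were 0.69 ± 0.08 in the iOB GFP+ table (adjusted p = 1.28e-15) and 0.40 ± 0.12 in the iOB table (adjusted p = 0.00327), again from the authors' deposited tables. Creb3l2 was not called in the authors' deposited iOB GFP+ table (-0.10 ± 0.13, adjusted p = 0.585) and lower in the iOB table (-0.47 ± 0.14, adjusted p = 0.00346). Xbp1 was called higher in the authors' deposited iOB GFP+ table (0.31 ± 0.13, adjusted p = 0.0352).

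The folding genes divided in the authors' deposited iOB GFP+ table. Of the chaperones and co-chaperones, 6 were called higher and 4 lower, and of the disulfide isomerases 4 of 4 were lower. Among all genes 23.7% were called higher and 21.7% lower. The authors' deposited log2 fold change of Dnajb9 was 1.67 ± 0.14 in the iOB GFP+ table (adjusted p = 1.28e-29) and 1.32 ± 0.16 in the iOB table (adjusted p = 1.89e-14). Hsp90b1 had -1.14 ± 0.07 in the iOB GFP+ table (adjusted p = 3.38e-52) and -0.52 ± 0.12 in the iOB table (adjusted p = 9.16e-05), both from the authors' deposited tables. Hspa5 was lower in the authors' deposited iOB GFP+ table (-0.29 ± 0.08, adjusted p = 0.000902) and not called in the iOB table (0.02 ± 0.13, adjusted p = 0.942). The 4 disulfide isomerases ran over -0.90 to -0.65 on the log2 scale in the authors' deposited iOB GFP+ table and -0.94 to -0.29 in the iOB table. Of the 7 genes with the ERSE letters shown above, 5 were lower in the authors' deposited iOB GFP+ table (Hspa5, Hsp90b1, Calr, Canx, Pdia6) and 2 higher (Dnajc3, Creld2).

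Export, translocation and collagen folding genes were called higher in the authors' deposited iOB GFP+ table. The calls were 5 of 7 COPII export factors, 3 of 5 translocation factors, 3 of 4 collagen folding factors and 2 of 3 receptors, whereas in the authors' deposited iOB table the same groups had 1 gene called higher (Crtap) and 3 lower (Serpinh1, Sec23a, Kdelr3). Over all genes, 23.7% were called higher and 21.7% lower in the iOB GFP+ table, and 19.9% and 15.0% in the iOB table. The authors' deposited values for Crtap were 1.47 ± 0.18 in the iOB GFP+ table (adjusted p = 2.11e-15) and 0.94 ± 0.10 in the iOB table (adjusted p = 3.39e-20). Serpinh1 was on opposite sides of 0 in the authors' deposited tables: 0.47 ± 0.20 in the iOB GFP+ table (adjusted p = 0.044) and -0.57 ± 0.11 in the iOB table (adjusted p = 3.22e-06). Kdelr3 was too, with 0.63 ± 0.22 in the iOB GFP+ table (adjusted p = 0.0111) and -0.32 ± 0.12 in the iOB table (adjusted p = 0.0297) in the authors' deposited tables. For the procollagen export receptor gene Mia3 the authors' deposited values were 0.61 ± 0.19 in the iOB GFP+ table (adjusted p = 0.00313) and -0.10 ± 0.10 in the iOB table (adjusted p = 0.477), and for its coat partner Sec24d they were 0.65 ± 0.21 in the iOB GFP+ table (adjusted p = 0.00675) and -0.20 ± 0.12 in the iOB table (adjusted p = 0.212). Sec23a was not called in the authors' deposited iOB GFP+ table (-0.27 ± 0.19, adjusted p = 0.266).

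**Figure D5:**
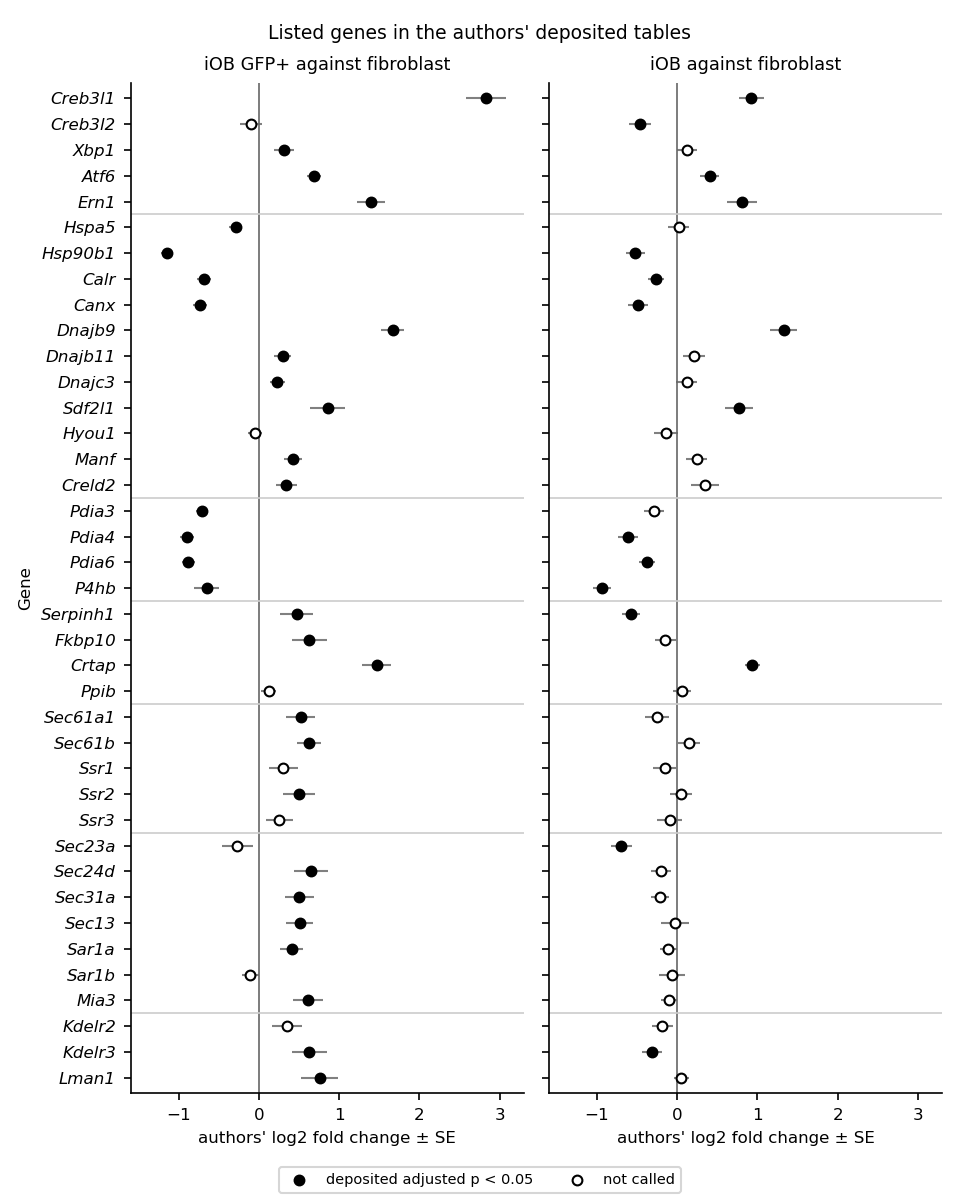
The authors' deposited log2 fold changes (x axes, bars ± SE) of the 39 listed genes for iOB GFP+ against fibroblast and for unsorted iOB against fibroblast; filled points have a deposited adjusted p below 0.05. The translocation, COPII and receptor genes lie mostly right of 0 in the iOB GFP+ panel and near or left of 0 in the iOB panel, while the 4 disulfide isomerases lie left of 0 in both.

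The other pathway lists in the authors' deposited iOB GFP+ table had 10 of 17 collagen-modifying genes higher and 5 lower, 11 of 20 COPII partners higher and 2 lower, 7 of 20 translocon and signal peptidase genes higher and 1 lower, 8 of 14 ER-associated degradation genes higher and 1 lower, and 2 of 10 oligosaccharyltransferase genes higher and 2 lower. For these counts and those below, the background over all genes was 23.7% higher and 21.7% lower, together 45.5%. The authors' deposited log2 fold change was 1.93 ± 0.25 (adjusted p = 5.32e-14) for Sparc, -0.95 ± 0.14 (adjusted p = 2.49e-11) for Plod1, and 1.24 ± 0.18 (adjusted p = 1.56e-10) for Leprel4, an ER protein of the prolyl 3-hydroxylase family. Of the 19 other folding enzymes, 9 were higher and 6 lower, with Ero1l at -1.70 ± 0.13 (adjusted p = 2.51e-39) and Fkbp11 at 2.23 ± 0.27 (adjusted p = 1e-15) in the authors' deposited table. Of the 13 other genes of the unfolded protein response, 9 were higher and 2 lower; Atf3, a stress-induced transcription factor, was at 4.78 ± 0.32 (adjusted p = 5.37e-48) in the authors' deposited table.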

How the data were processed

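RNA from 9 libraries (iOB, calvarial-OB and fibroblast, 3 each) was analysed, out of 33 samples in the series. The authors deposited whole-number counts per gene symbol for these libraries (calvarial-OB under the header OB). The submitters' processing notes list mm9 as the build and STAR 2.4.2a, DESeq2, R 3.2.2 and Bowtie2 as tools. How reads were counted, on which annotation and with what strand setting, is not given in the sources used here. For iOB against fibroblast and iOB GFP+ against fibroblast the authors deposited comparison tables. Per the file headers their columns are the base mean (treated as signal), the log2 fold change, its standard error and test statistic (each treated as a score), the p-value and its adjusted form. The deposited iOB log2 values were within a median of 0.000338 of a DESeq2 refit with a prior on fold changes, and are therefore shrunk; whether the iOB GFP+ values are is not stated.

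Counts were fitted with edgeR 4.0.16 in R 4.3.3 (TMM, filterByExpr, glmQLFit and glmQLFTest, group as the only term, 1 fit over the 3 groups), leaving 13438 of 17982 genes; the biological coefficient of variation was 14.8%. P-values were Benjamini-Hochberg adjusted over all genes tested and called below 0.05. The SE is the absolute log2 fold change over the square root of the F statistic. The fit was tested on simulated data. Ratios between genes were compared by two-sided exact permutation tests (scipy 1.17.1). Counts carry no molecular identifiers. Sequences come from RefSeq promoters (GRCm38.p6), matched by symbol.

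The members, role groups and other pathway lists were chosen with earlier results of these data known. The rule for named genes gave every library's value for Creb3l1, Creb3l2 and Xbp1 and for the 2 members of each role group with the smallest adjusted p in each comparison; at most 3 genes were named per pathway list and comparison. Alternatives were other scalings, no low-count filter, DESeq2 1.42.0, fits of 2 groups, a replicate block, a threshold of 0.01 and leaving out each library.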

Additional observations from a re-analysis of the deposited data

How the results depend on the processing

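Of the calls on listed genes, 11 of 16 for iOB against fibroblast, 19 of 25 for calvarial-OB against fibroblast and 12 of 18 for iOB against calvarial-OB held under all 17 alternatives that kept the threshold at 0.05 (8 other settings and 9 fits that each left out a library), and no listed gene that was called changed sign. With library totals alone, which moved the iOB-against-fibroblast median of all genes by 0.18, 1479 genes were called lower in that comparison, against 2765 with TMM, and 6 listed genes, against 10; the listed genes' median log2 fold change was 0.0526, against -0.13. For iOB against calvarial-OB the listed genes called lower numbered 4 with library totals alone and 4 when the fit held only those 2 groups, against 7. At an adjusted p below 0.01, 1689 genes were lower in iOB than in fibroblast and 2106 lower in iOB than in calvarial-OB (against 2765 and 3244), and for iOB against calvarial-OB 6 listed genes were higher and 4 lower (against 11 and 7). At a deposited adjusted p below 0.01, 13 listed genes were higher in the authors' iOB GFP+ table, against 23. The share of all genes at that deposited threshold is not given here. The cause of these shifts was not tested, apart from the stricter threshold, which lowers counts by construction.

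Leaving out 1 library at a time gave 6 to 13 listed genes higher in calvarial-OB than in fibroblast, the 13 without calvarial-OB replicate 1, and 4 to 10 listed genes lower in iOB than in calvarial-OB, the 4 without calvarial-OB replicate 2, iOB replicate 2 or iOB replicate 3. Over all genes, the same fits called 3367 to 3965 higher in calvarial-OB than in fibroblast. They called 2601 to 3243 of all genes lower in iOB than in calvarial-OB. Same-numbered libraries did not deviate together (correlations of -0.146 to 0.147 across genes, and 5 of 18 comparisons best with the own number). The labels state no pairing, and with 3 libraries a group these correlations cannot show whether the numbers pair the libraries. With the replicate block, 6 listed genes were higher and 9 lower in iOB than in fibroblast, 7 and 16 in calvarial-OB than in fibroblast, and 11 and 6 in iOB than in calvarial-OB. The counts over all genes with the block are not given here. Ern1, with as few as 79 counts in a library, was the least deeply counted listed gene.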

Other observations

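Ordered by mean CPM, the listed genes ran fibroblast, iOB, calvarial-OB from high to low in 13 of 39 cases. Another 6 were highest in iOB and lowest in calvarial-OB, 6 were highest in calvarial-OB and lowest in iOB, 5 ran fibroblast, calvarial-OB, iOB, 5 ran calvarial-OB, iOB, fibroblast, and 4 ran iOB, calvarial-OB, fibroblast. Neighbours in these orders often overlapped between libraries, as given gene by gene above.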
